A study of Mus musculus with 24 samples.

Results

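The genes described here are 9 complement components and regulators of the mouse kidney, namely C3, C4b, Cfb, C1qa, C1qb, C1qc, C1ra, Serping1 and C3ar1. They were chosen by gene symbol, and all 9 had 1 row each among the 14785 genes of the deposited expression table. The table holds 24 libraries of polyA-selected RNA from 24 male C57/BL6 mice aged 8 to 9 weeks at the start, 4 per group, chosen from 10 animals per group. The submitters' design text counts 20 libraries. In unilateral ureteral obstruction (UUO) the ureter of 1 kidney is ligated, and in the reversible form the ureter is later reimplanted so that urine can drain again. The Sham group had sham surgery. The UUO2 and UUO7 mice were killed 2 and 7 days after ligation with the ureter still tied, and the R1W, R2W and R4W mice had the ureter freed after 7 days and were killed 1, 2 and 4 weeks later. The tissue is called cortical kidney in the series title and kidney in the sample labels. The sources used here do not say how long after surgery the sham mice were killed, nor how the 4 mice of a group were selected. R4W replicate 2 was labelled 4 weeks in its title and 2 weeks in its treatment field, and was kept with its title.

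Complement is a cascade of plasma and tissue proteins that marks microbes and damaged cells. The classical pathway starts when C1q, a protein built of the A, B and C chains encoded by C1qa, C1qb and C1qc, binds a target and activates the proteases C1r and C1s, which cleave C4 and C2. The alternative pathway amplifies on C3 itself through factor B, the product of Cfb. Both pathways meet at C3, whose small fragment is sensed by the receptor encoded by C3ar1. Serping1 encodes C1 inhibitor, which blocks C1r, C1s and the proteases of the lectin pathway. The liver makes most circulating complement, while C1q is made mainly by macrophages and dendritic cells, and tubular epithelium can make C3 and factor B.

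Expression is given as FPKM, the number of sequenced fragments corrected for gene length and library size. Differences are on the log2(FPKM + 1) scale with a standard error from limma, and a gene was called when its Benjamini-Hochberg adjusted p over all 14785 genes was below 0.05. FPKM is a share of each library. The median gene itself stood 0.42 (log2) higher in UUO7 than in Sham, 0.37 higher in R1W and 0.30 higher in R4W. The cause of this shift was not tested. Differences are thus given both without rescaling and with each library scaled to the median gene. The depth implied by the smallest steps between values was 25030000 to 35290000 fragments in 20 libraries. The 4 UUO2 libraries did not show the whole-read steps seen in these 20, and this property and the 2-day time point cannot be told apart. The libraries were from kidney by their proximal tubule markers, which had all 5 markers present and summed to 36565 to 49073 FPKM in Sham. In whole tissue, more cells of a type and more RNA per cell cannot be told apart.

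In Sham, Cfb was by far the most abundant of the 9 genes, with a mean of 197 FPKM that did not overlap the range of the next gene, Serping1, at 21.3 FPKM. The 3 C1q chains followed at 12.4 FPKM for C1qb, 10.8 for C1qa and 8.3 for C1qc. C3, C1ra and C4b lay at 3.79, 3.63 and 2.95 FPKM with overlapping ranges, and C3ar1 was lowest at 0.237 FPKM. From this start the 9 genes took different courses: C3, C4b and Cfb were at or near their obstruction level by day 2, whereas the C1q chains, Serping1 and C3ar1 gained most of their rise between day 2 and day 7. C1ra lay between them, with 31.7% of its rise in mean FPKM present at day 2 but 1.40 of 2.65 on the log2 scale. After 7 days C3 was first in the order at 395 FPKM, apart from C1qa at 319 FPKM, and C1qa, Cfb and C1qb overlapped their neighbours. After reversal C1qa led the order in all 3 groups, with 289, 283 and 204 FPKM in R1W, R2W and R4W, each overlapping C1qb. C3 fell to the sixth place of 9.

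**Figure D1:**
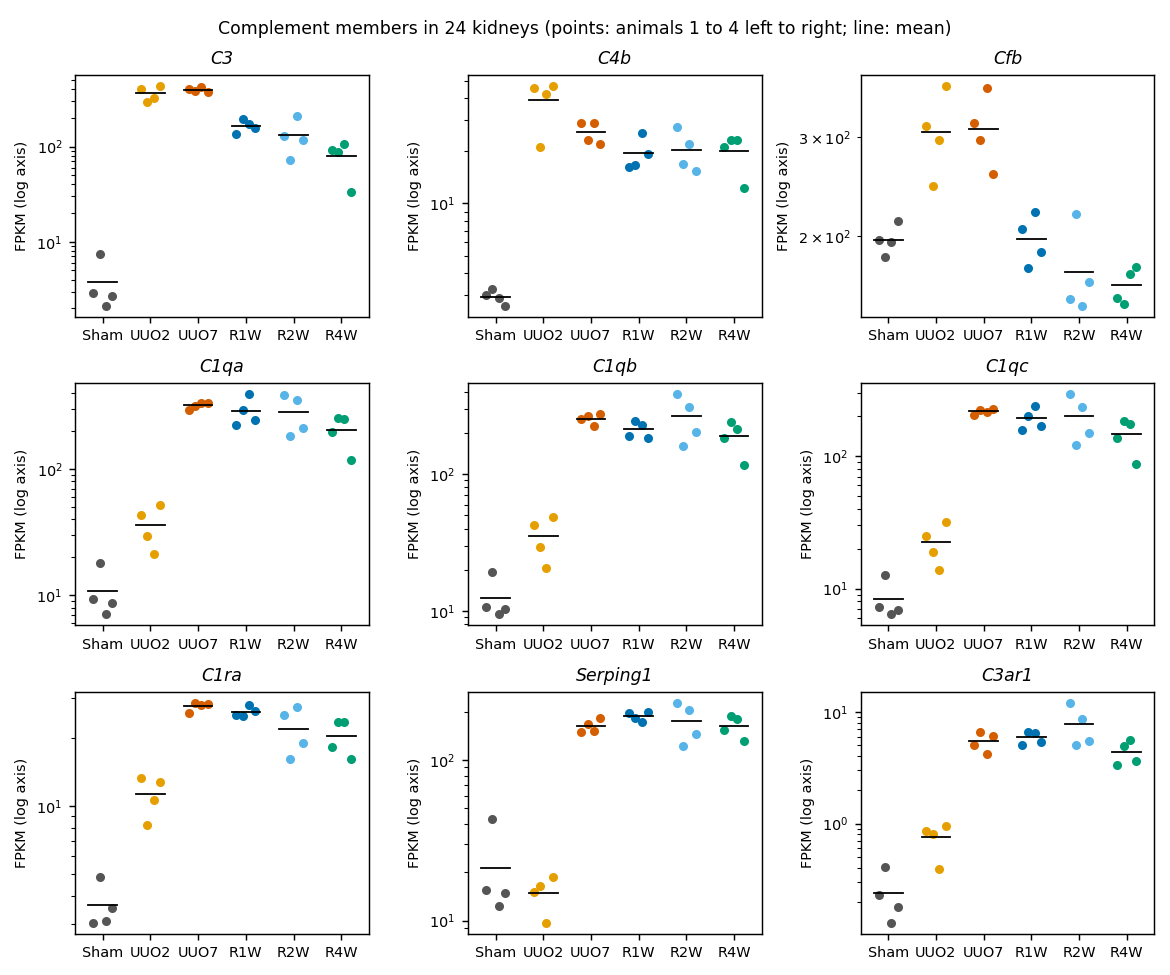
FPKM of the 9 genes on log axes, with 1 panel per gene and 1 point per animal in the 6 groups, and a line at each group mean. C3, C4b and Cfb are high by UUO2, the C1q chains, Serping1 and C3ar1 are high from UUO7 on, and Cfb alone returns to the Sham range or below it.

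C3, the central component on which all pathways converge, had FPKM of 2.88, 7.48, 2.13 and 2.69 in the 4 Sham mice. It had 399, 295, 322 and 437 FPKM in UUO2 and 402, 380, 423 and 375 FPKM in UUO7. Every obstructed kidney stood far above every sham kidney, and the 2 obstruction groups overlapped. Mean FPKM was 95.7 times the Sham mean after 2 days and 104 times after 7 days (log2 difference 6.35 ± 0.33, limma adjusted p = 5.65e-12, and 6.49 ± 0.33, adjusted p = 5.42e-12, n = 4 per group). Without Sham replicate 2 the means were 141 and 154 times that of Sham. Between day 2 and day 7 C3 differed by 0.14 (limma adjusted p = 0.729), a difference that was -0.21 after rescaling. The authors' deposited table gives -0.31 (adjusted p = 0.0182). With reversal C3 came down, to 137, 195, 174 and 155 FPKM in R1W, to 129, 72.5, 208 and 116 FPKM in R2W, and to 92.8, 88.3, 106 and 33.2 FPKM in R4W. No reversed kidney reached the UUO7 range and none came near Sham. The fall from UUO7 was 1.26 ± 0.33 on the log2 scale by week 1 (R1W against UUO7 -1.26, limma adjusted p = 0.0148) and reached -2.41 by week 4 (adjusted p = 1.56e-05). At week 4 C3 was still 21.1 times Sham (log2 difference 4.08, limma adjusted p = 4.2e-09), or 31.2 times without Sham replicate 2. The further fall from week 1 to week 4 was called (-1.15, limma adjusted p = 0.0218), but not without R1W replicate 3 (-1.12, adjusted p = 0.0724) or R4W replicate 4 (-0.77, adjusted p = 0.0836), nor when only these 2 groups were fitted (adjusted p = 0.0709).

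C4b encodes the C4 protein that the classical and lectin pathways cleave on the way to C3. Its FPKM was 3, 3.25, 2.91 and 2.62 in Sham, 45.5, 21.1, 42 and 46.9 in UUO2, and 28.9, 22.8, 28.8 and 21.8 in UUO7. It rose 13.2-fold in mean FPKM by day 2 (3.28 ± 0.23, limma adjusted p = 7.19e-10) and stood 8.69-fold above Sham at day 7 (2.74 ± 0.23, adjusted p = 1.36e-09). The drop from day 2 to day 7 was -0.53 (limma adjusted p = 0.0457) with overlapping ranges. It was not called when only the 2 groups were fitted (adjusted p = 0.0814), nor without any 1 of UUO2 replicates 1, 3 and 4 or UUO7 replicates 2 and 4 (-0.48 to -0.42, adjusted p from 0.0992 to 0.135). After rescaling the drop was larger (-0.87, limma adjusted p = 0.00176), and the authors' deposited table gives -1.32 (adjusted p = 7.07e-10). After reversal C4b ranged from 16.2 to 25.3 FPKM in R1W and from 15.3 to 27.2 in R2W, and the R4W mice had 21, 22.9, 23 and 12.3 FPKM. Unlike C3, C4b showed no called decrease from UUO7 to R4W (-0.38, limma adjusted p = 0.174), and at week 4 it was 6.73 times Sham (2.36, adjusted p = 3.55e-08). Within single libraries the C4b/C3 ratio therefore shifted: it was 0.058 to 0.0719 in UUO7 and 0.217 to 0.37 in R4W, without overlap (log2 difference 2.03, exact permutation test, two-sided p = 0.0286, adjusted p = 0.0317 over 10 ratio tests). With 4 against 4 animals 0.0286 is the smallest p this test can give. In the GENCODE M21 transcripts, 15.2% of the 100-base words of C4b also occur in its near-identical neighbour C4a, so reads of these 2 genes may have been divided between them.

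Cfb, the factor B gene, was already high in Sham. It had 196, 184, 195 and 213 FPKM in Sham, 314, 245, 297 and 371 in UUO2, and 318, 296, 368 and 259 in UUO7. The obstruction groups lay above Sham without overlap, at 1.56 and 1.58 times its mean (0.62 ± 0.13, limma adjusted p = 0.000384, and 0.64 ± 0.13, adjusted p = 9.98e-05). The median gene shifted by 0.09 in UUO2 and by 0.42 in UUO7, and after rescaling the UUO7 difference was 0.16 (limma adjusted p = 0.354), and the authors' deposited table gives -0.30 (adjusted p = 0.00698), the opposite direction. Rescaled, the UUO2 rise stayed called (0.49, limma adjusted p = 0.0102). After reversal Cfb fell, to 206, 175, 221 and 187 FPKM at week 1, 154, 219, 150 and 165 at week 2, and 155, 151, 171 and 176 at week 4. The decrease from UUO7 was -0.65 by week 1 (limma adjusted p = 0.00317) and -0.91 by week 4 (adjusted p = 1.77e-05). All 4 R4W mice were below all 4 Sham mice, with a difference of -0.27 that was not called (limma adjusted p = 0.0648). It was called after rescaling (-0.65, adjusted p = 0.000941), with the 2 groups fitted alone (adjusted p = 0.00601) and without UUO2 in the fit (adjusted p = 0.0478), and the authors' deposited table gives -0.76 (adjusted p = 3.55e-12). In M21 66.9% of the 100-base words of Cfb also occur in Gm20547, an overlapping annotated gene, so the level of Cfb depends on how such reads were divided. The Cfb/C3 ratio ran from 24.6 to 91.6 in Sham, from 0.689 to 0.87 in UUO7 and from 1.61 to 5.29 in R4W.

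The 3 C1q chains shared 1 course. C1qa had 9.36, 17.9, 7.09 and 8.72 FPKM in Sham, 43.1, 29.4, 21.2 and 51.5 in UUO2 and 294, 317, 330 and 334 in UUO7. The 3 groups were separate from each other. C1qa rose 3.37-fold by day 2 (1.67 ± 0.30, limma adjusted p = 0.000125) and 29.6-fold by day 7 (4.84 ± 0.30, adjusted p = 4.27e-11), of which 3.18 came after day 2 (adjusted p = 2.09e-08). After reversal it had 225, 293, 392 and 246 FPKM at week 1, 388, 183, 349 and 212 at week 2, and 197, 253, 248 and 118 at week 4. The first 2 of these groups overlapped UUO7 and the R4W animals all lay below it. The R4W difference from UUO7 was -0.70 and missed the threshold (limma adjusted p = 0.0612). It passed when only these 2 groups were fitted (adjusted p = 0.0265), with a pseudocount of 10 (-0.67, adjusted p = 0.0355), with R4W replicate 2 moved to R2W (-0.82, adjusted p = 0.0396) and without R4W replicate 2 or 3 (adjusted p = 0.0455 and 0.0495), and the authors' deposited table gives -0.59 (adjusted p = 0.00393). At week 4 C1qa was 18.9 times Sham (4.14, limma adjusted p = 1.62e-09).

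C1qb and C1qc moved with it. C1qb had 10.7, 19.2, 9.48 and 10.3 FPKM in Sham, 42.2, 29.4, 20.7 and 49 in UUO2, 254, 267, 225 and 275 in UUO7 and 182, 240, 216 and 116 in R4W. C1qc had 7.23, 12.7, 6.4 and 6.9 FPKM in Sham, 24.8, 19, 13.9 and 31.7 in UUO2, 204, 223, 216 and 228 in UUO7 and 137, 185, 176 and 86.9 in R4W. For both genes Sham lay below UUO2 and UUO2 below UUO7 without overlap. They rose by 1.42 and 1.31 by day 2 (limma adjusted p = 0.000293 and 0.000571) and by 4.30 and 4.60 by day 7 (adjusted p = 7.06e-11 and 3.09e-11). Neither week 4 difference from UUO7 was called (C1qb -0.48, limma adjusted p = 0.163, and C1qc -0.63, adjusted p = 0.0679), although the C1qc ranges did not overlap. The C1qc decrease was called with a pseudocount of 10 (-0.59, limma adjusted p = 0.0422), with the 2 groups fitted alone (adjusted p = 0.036), and with R4W replicate 2 moved to R2W or left out (-0.76, adjusted p = 0.0377 and 0.0435), and the authors' deposited table gives -0.52 (adjusted p = 0.0101). The C1qc/C1qa ratio stayed between 0.575 and 0.903 in all 24 libraries, while C1qb/C1qa ran from 1.07 to 1.34 in Sham and from 0.68 to 0.864 in UUO7. C1qa, C1qb and C1qc lie side by side on mouse chromosome 4 (mm10).

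C1ra encodes the protease C1r. Its FPKM was 3.04, 4.87, 3.09 and 3.54 in Sham, 13.4, 8.27, 10.7 and 12.8 in UUO2, and 25.8, 28.8, 28.1 and 28.5 in UUO7, with no overlap between the groups. It rose by 1.40 ± 0.16 by day 2 (limma adjusted p = 6.16e-07) and by 2.65 ± 0.16 by day 7 (adjusted p = 3.09e-11). After reversal C1ra ranged from 25.1 to 28.1 FPKM in R1W, and the R4W mice had 18.2, 23.6, 23.6 and 16.2 FPKM. The week 4 decrease from UUO7 was small (-0.44, limma adjusted p = 0.0273). It was not called after rescaling (-0.34, adjusted p = 0.0549), nor without UUO7 replicate 2, 3 or 4 or R4W replicate 1 or 4 (adjusted p from 0.0534 to 0.105), while the authors' deposited table gives -0.38 (adjusted p = 0.00328). In M21 35.9% of the 100-base words of C1ra also occur in its paralogue C1rb, which has no row in the table.

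Serping1, the C1 inhibitor gene, had no called change by day 2. Its FPKM was 15.4, 42.8, 12.2 and 14.8 in Sham and 15, 16.4, 9.69 and 18.7 in UUO2, which overlapped (-0.34, limma adjusted p = 0.313, and 0.04 without Sham replicate 2, adjusted p = 0.884). It then reached 149, 167, 152 and 183 FPKM in UUO7, above every Sham and UUO2 mouse (3.05 ± 0.27 against Sham, limma adjusted p = 3.2e-09, and 3.39 against UUO2, adjusted p = 2.49e-09). It did not come down: R1W had 197, 183, 174 and 200 FPKM, R2W 228, 123, 205 and 145, and R4W 154, 188, 181 and 132. The R4W difference from UUO7 was 0.00 ± 0.27 (limma adjusted p = 1), and R4W was 7.68 times Sham, or 11.6 times without Sham replicate 2.

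C3ar1, the receptor for the C3 fragment, was the least abundant gene in every group. It had 0.23, 0.41, 0.13 and 0.18 FPKM in Sham, 0.86, 0.8, 0.39 and 0.96 in UUO2, and 5, 6.61, 4.2 and 6.1 in UUO7. Mean FPKM was 3.17 times Sham at day 2 and 23.1 times at day 7. At these levels the added 1 compresses the log2 difference, to 0.49 ± 0.20 at day 2 (limma adjusted p = 0.0429) and 2.38 ± 0.20 at day 7 (adjusted p = 1.33e-09), where the authors' deposited table gives 1.59 and 4.05. The day 2 call was lost with a pseudocount of 10 (0.07, limma adjusted p = 0.541) and without any 1 of Sham replicates 1, 3 and 4 or UUO2 replicates 1, 2 and 4 (adjusted p from 0.0723 to 0.111). In R1W it had 5.08, 6.64, 6.52 and 5.38 FPKM, in R2W 12.1, 5, 8.54 and 5.43, and in R4W 3.34, 4.92, 5.57 and 3.61. All 3 groups overlapped UUO7, and the R4W difference of -0.28 was not called (limma adjusted p = 0.252).

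**Figure D2:**
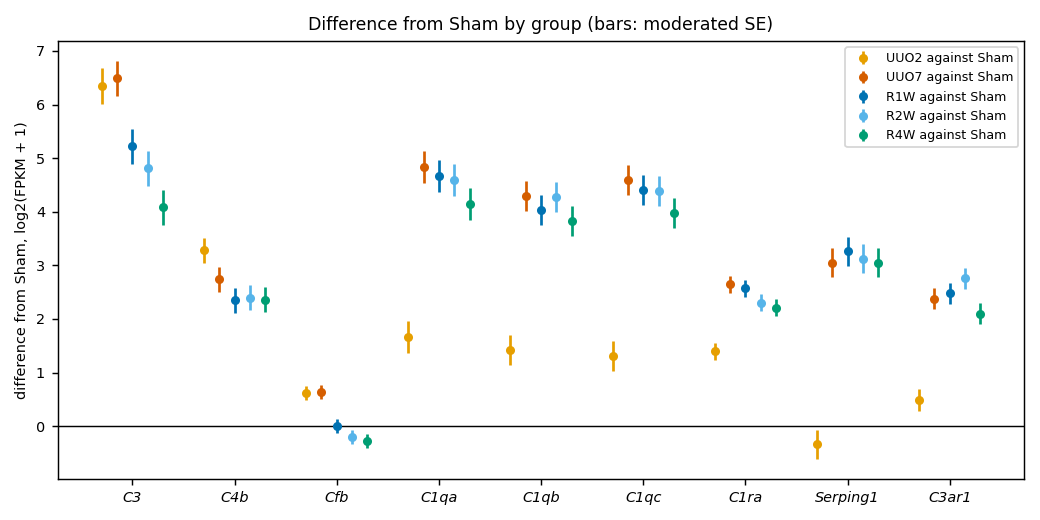
Difference from Sham on the log2(FPKM + 1) scale for the 9 genes in the 5 other groups, with bars of 1 moderated standard error and n = 4 per group. The C3 points step down from 6.49 in UUO7 to 4.08 in R4W, Serping1 lies at 3.05 in both UUO7 and R4W, and Cfb crosses from 0.64 to -0.27.

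Counted over the 9 genes, 8 rose and none fell from Sham to UUO2, where 32.3% of all genes rose and 17.0% fell. From Sham to UUO7 all 9 rose, against 60.1% of all genes, and 17.8% fell. After rescaling 8 of the 9 rose, with Cfb the exception, where 36.5% of all genes rose and 36.5% fell. From UUO2 to UUO7 6 rose and C4b alone fell, against 52.0% and 14.7% of all genes. Cfb and C3 were not called (0.02 and 0.14, or -0.33 and -0.21 after rescaling). For these genes the authors' deposited table gives -0.69 (adjusted p = 1.71e-11) and -0.31 (adjusted p = 0.0182). The median difference from Sham over the 9 genes was 1.40 at day 2 and 3.05 at day 7, where it was 0.09 and 0.42 over all genes. From UUO7 to R1W only C3 and Cfb fell and none rose, against 8.04% and 6.47% of all genes. From UUO7 to R4W C3, Cfb and C1ra fell, 3 of 9 against 30.8% of all genes, so this share was near that of the table. None rose, against 17.6%. The comparisons with UUO7 or with Sham share the same control mice.

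Between neighbouring reversal times little was called. From R1W to R2W limma called none of the 9 genes (0.00676% of all genes lower and 0.00% higher), and from R2W to R4W none (0.0203% lower and 0.0406% higher). From R2W to R4W 2 of the 9, C3 (-0.73) and C3ar1 (-0.66), had an unadjusted limma p under 0.05, and from R1W to R2W none had. The share of all genes under this unadjusted threshold is not given here, so no excess can be read from this count. From R1W to R4W only C3 was called lower, against 14.1% of all genes, and none was higher, against 5.06%. Against Sham, 8 of 9 were higher and none lower at week 1 of reversal (59.4% and 14.7% of all genes), at week 2 (56.1% and 12.9%) and at week 4 (54.8% and 11.6%). Cfb was the gene not called, and after rescaling it was called lower than Sham in all 3 groups (-0.45, -0.60 and -0.65), as were 34.6%, 32.5% and 31.1% of all genes. The median of the 9 genes at R4W was 3.05, against 0.30 for all genes.

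The share of the UUO7 rise in mean FPKM that was present at each other time sets these courses side by side. At day 2 it was 91.9% for C3, 97.1% for Cfb and 159% for C4b, but 6.7% to 9.44% for the C1q chains, 9.83% for C3ar1, 31.7% for C1ra and -4.53% for Serping1. At week 4 of reversal it was 19.5% for C3 and -29.8% for Cfb. It was 62.7% to 72.6% for the C1q chains, 69.4% for C1ra, 74.5% for C4b, 78.7% for C3ar1 and 101% for Serping1. The Cfb shares rest on a UUO7 rise that was 0.16 and not called after rescaling. In the authors' deposited table that difference was -0.30. The C3/C1qa ratio within libraries moved accordingly: it was 0.3 to 0.417 in Sham, 8.47 to 15.2 in UUO2, 1.13 to 1.36 in UUO7 and 0.281 to 0.472 in R4W. UUO7 was separate from Sham (1.64) and from R4W (-1.71), each with an exact permutation p = 0.0286 and an adjusted p = 0.0317. The R4W range thus overlapped the Sham range, although C3 was then at 21.1 times and C1qa at 18.9 times its Sham mean.

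**Figure D3:**
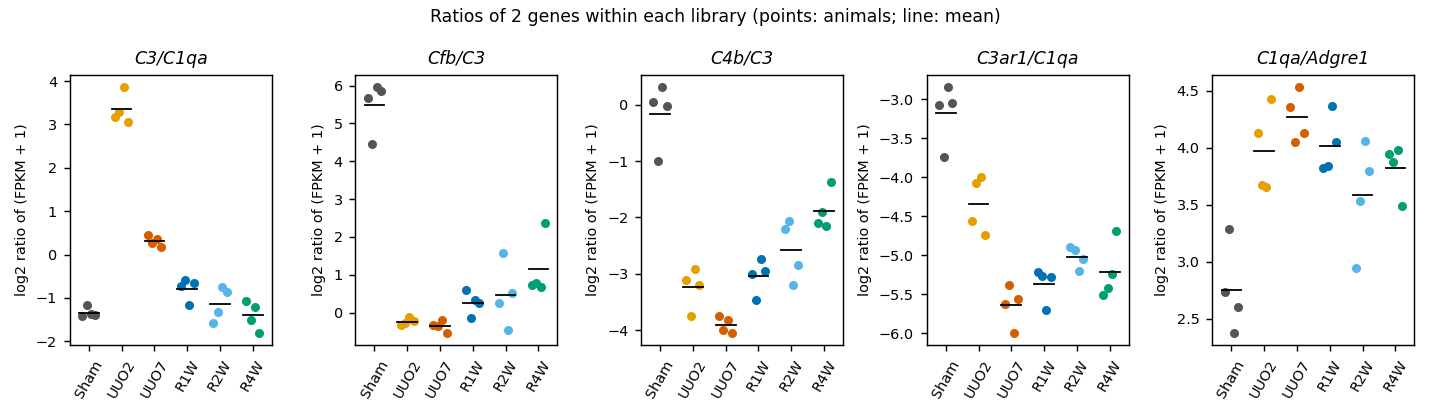
Log2 ratio of (FPKM + 1) of 2 genes within each library, with 1 panel per pair, 1 point per animal in the 6 groups and a line at each group mean. C3/C1qa peaks in UUO2 and returns to the Sham level, Cfb/C3 drops from 5.48 in Sham to -0.36 in UUO7, and C4b/C3 climbs again after reversal.

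The proximal promoters of the early gene C3 and the late gene C1qb, which is active in macrophages, are shown because these genes stand for the 2 time courses. They are the 250 bases before the RefSeq start (GRCm38.p6, minus strand, 5′ to 3′), at chr17:57228137-57228386 for C3 and chr4:136886201-136886450 for C1qb. Capitals mark matches to the C/EBP motif TTNNGNAA in C3 and to the PU.1 core GAGGAA in C1qb, each searched on both strands.
C3: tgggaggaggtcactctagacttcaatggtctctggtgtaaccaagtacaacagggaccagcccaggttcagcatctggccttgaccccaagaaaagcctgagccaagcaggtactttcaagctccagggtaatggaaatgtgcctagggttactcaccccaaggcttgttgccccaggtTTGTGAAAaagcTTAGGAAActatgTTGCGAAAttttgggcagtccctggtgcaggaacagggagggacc
C1qb: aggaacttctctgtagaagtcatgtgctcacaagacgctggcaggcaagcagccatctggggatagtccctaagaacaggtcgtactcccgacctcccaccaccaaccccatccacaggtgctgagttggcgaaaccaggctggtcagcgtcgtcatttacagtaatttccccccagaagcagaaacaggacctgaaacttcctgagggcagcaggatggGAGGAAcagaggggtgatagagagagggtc
The C3 window holds 3 C/EBP matches, at bases -70 to -63, -58 to -51 and -45 to -38 from the start, the last of them reading on both strands. Of 32851 RefSeq promoter windows of this length 36.8% hold at least 1 such match and 2.61% hold 3 or more. C/EBP matches were not limited to C3: the C1qc window has 1, at -81 to -74, and the C1ra window has 2, at -72 to -65 and -29 to -22. In the authors' annotation C1qc starts at chr4:136893065 and C1ra at chr6:124512405, positions inside these RefSeq windows. The C/EBP matches of C1qc and C1ra thus lie within the genes as the authors annotated them. The C1qb window has its PU.1 core match at -30 to -25, and the C1qc window has 1 on the minus strand at -193 to -188, where 23.3% of windows hold one. The C3ar1 window holds a match to the AP-1 motif TGANTCA (6.75% of windows) and to the NF-kB motif, which is GGG, 2 free bases, TT, 1 free base and CC (4.11%). The C3, C1qb, C1qc, C1ra and C3ar1 windows hold no match to the STAT motif TTCNNNGAA (7.02%) or the interferon motif, which is GAAA, 2 free bases and GAAA (2.98%). C4b, Cfb, C1qa and Serping1 have no entry in the table of promoters. A match describes letters and not binding, which was not measured.

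Of 50 other complement genes listed, 28 had a row. They were 6 of 14 initiators, 2 of 2 alternative pathway genes, 3 of 7 terminal pathway genes, 11 of 18 regulators and 6 of 9 receptors. From Sham to UUO2 10 of the 28 rose and 5 fell, or 35.7% and 17.9% against 32.3% and 17.0% of all genes, with a median difference of 0.11 against 0.09. From Sham to UUO7 17 rose and 5 fell, or 60.7% and 17.9% against 60.1% and 17.8% of all genes, with a median of 1.21 against 0.42. After rescaling these were 16 and 7, or 57.1% and 25% against 36.5% and 36.5%. From UUO7 to R4W 7 rose and 8 fell, or 25% and 28.6% against 17.6% and 30.8% of all genes. At R4W 19 were above Sham and 4 below, or 67.9% and 14.3% against 54.8% and 11.6%, and after rescaling 15 and 7, or 53.6% and 25% against 28.9% and 31.1%. The shares in the 2 obstruction groups before rescaling were thus near those of the whole table.

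Several regulators followed the early course of C3. Clu, which encodes clusterin, an inhibitor of the terminal complex, went from 163 to 202.5 FPKM in Sham to 2180 to 2293 in UUO2 and 2158 to 2617 in UUO7, and was 786 to 855 in R4W (3.66, 3.73 and 2.22 above Sham, limma adjusted p = 1.19e-13, 4.86e-13 and 7.38e-10). Cfi, the protease that cuts activated C3 and C4, went from 1.44 to 2.14 FPKM in Sham to 18.2 to 36.6 in UUO2 and was 5.98 to 6.96 in R4W (-1.86 from UUO7, limma adjusted p = 1.45e-06). Cpn1, the catalytic chain of carboxypeptidase N, which inactivates the small C3 and C5 fragments, was 28.7 to 33.1 FPKM in Sham, 101 to 130 in UUO2, 73.2 to 94 in UUO7 and 29.1 to 33.1 in R4W. At week 4 Cpn1 overlapped Sham (0.04, limma adjusted p = 0.707), but it was called below Sham after rescaling (-0.33, adjusted p = 0.00963), and the authors' deposited table gives -0.35 (adjusted p = 1.04e-05). C2, the partner of C4, was 12.6 to 15.8 FPKM in Sham, 27 to 37.5 in UUO2 and 32.2 to 35.1 in UUO7. C2 adjoins Cfb on chromosome 17, and 40.5% to 55.4% of its rise was present in the 3 reversal groups.

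Other genes rose mostly after day 2, as C1q did. C1s1, the protease partner of C1r, was 3.64 to 7.37 FPKM in Sham, 4.23 to 6.07 in UUO2 and 38.7 to 50 in UUO7 (2.91 from UUO2, limma adjusted p = 2.23e-10), and 28 to 44.9 in R4W. Colec12, a scavenger receptor of the collectin family, rose by 2.78 from UUO2 to UUO7 (limma adjusted p = 5.6e-10) and was lower in R4W than in UUO7 (-0.71, adjusted p = 0.00582). The integrin genes of complement receptors 3 and 4, Itgam, Itgax and Itgb2, were 2.79, 2.57 and 2.75 above Sham in UUO7 and 2.31, 2.89 and 3.12 above it in R4W, all called. At day 2 Itgam was already 1.10 above Sham (limma adjusted p = 0.000623, 10.5 times its mean FPKM) and Itgb2 0.73 (adjusted p = 0.0118), while Itgax was not called (0.48, adjusted p = 0.0809). Cpb2, which encodes another carboxypeptidase, rose late but did not stay high as C1q did: it went from 0.48 to 0.67 FPKM in Sham to 2.18 to 3.09 in UUO7 and was 0.38 to 0.69 in R4W, with a fall called by R1W (-0.48, limma adjusted p = 0.0148).

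The 5 genes that fell from Sham to UUO7 were Masp2, C8a, C8g, Cd55 and Mbl1. Masp2, the protease that starts the lectin pathway, went from 2.03 to 3.86 FPKM in Sham to 0.14 to 0.35 in UUO7 (-1.66, limma adjusted p = 9.02e-07) and was 0.68 to 2.58 in R4W. C8a and C8g, encoding chains of the pore-forming terminal complex, fell by 1.37 and 0.95 (-1.37 and -0.95) from Sham to UUO7 and were still below Sham in R4W (-0.97 and -0.46, limma adjusted p = 0.000543 and 0.0149). C7, the other terminal complex gene with a row, rose instead, from 0.69 to 1.78 FPKM in Sham to 3.97 to 6.54 in UUO7 and 5.51 to 11.4 in R4W (1.63 and 2.28 above Sham, limma adjusted p = 6.76e-07 and 2.78e-08). Cd55, a membrane protein that takes C3-cleaving enzymes apart, was 7.45 to 8.98 FPKM in Sham, 3.65 to 4.49 in UUO2 and 7.16 to 8.38 in R4W, where it was not called (-0.11, limma adjusted p = 0.262) but was -0.45 after rescaling. In UUO2 Cd46 fell with it (-0.31, limma adjusted p = 0.00795, and -0.40 after rescaling), Cd59b was called lower after rescaling alone (-0.48, and -0.60 rescaled, adjusted p = 0.0328), Cd59a was not called (-0.01), and Cr1l rose (0.16, adjusted p = 0.0203, but 0.03 and not called after rescaling). In UUO7 Cr1l was 0.52 above Sham (limma adjusted p = 3.22e-08, but 0.04 after rescaling), while Cd59a, Cd59b and Cd46 were not called (0.16, 0.40 and 0.18), although Cd59a was below Sham after rescaling (-0.31, limma adjusted p = 0.0271). In R4W Cd59a, Cd59b and Cd46 were 0.51, 1.02 and 0.23 above Sham, all called, and 0.15, 0.69 and 0.04 after rescaling. For these genes the authors' deposited table gives 0.12, 0.67 and 0.06 (adjusted p = 0.549, 0.0757 and 0.81). Mbl1, a mannose-binding lectin, first rose in UUO2 (0.91, limma adjusted p = 2.95e-06) and was below Sham in UUO7 (-0.31, adjusted p = 0.0234) and R1W (-0.62, adjusted p = 9.87e-05).

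**Figure D4:**
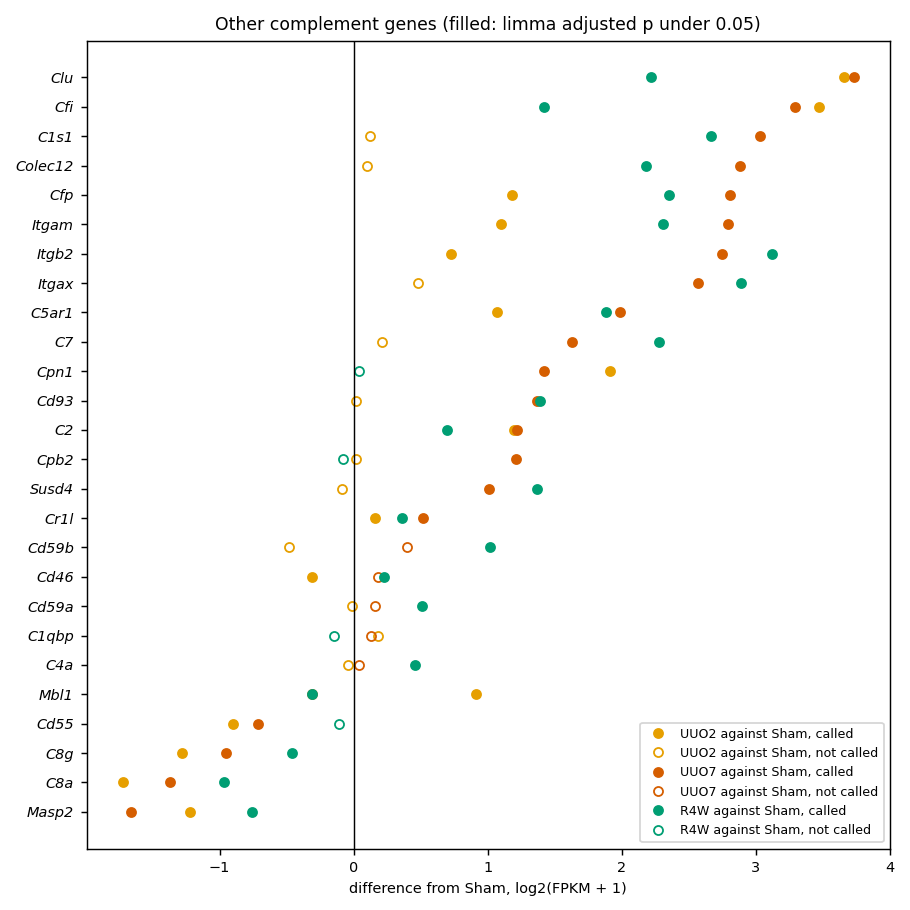
Difference from Sham on the log2(FPKM + 1) scale for other complement genes, without Cfd, in UUO2, UUO7 and R4W, with n = 4 per group. Filled points passed limma's adjusted threshold of 0.05, and Clu, Cfi and Cpn1 have their UUO2 points at or beyond UUO7 while C1s1 and Colec12 have theirs near 0.

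Cfd, the gene of factor D, which activates factor B, was high in 4 libraries. It had 91.8 FPKM in Sham replicate 2, 616 in R4W replicate 1, 191 in R4W replicate 3 and 12.1 in UUO7 replicate 3, and was under 1 FPKM in the other 20. The adipocyte gene Adipoq was at 12.5, 79.7 and 25.6 FPKM in the first 3 of these libraries. In UUO7 replicate 3 it was at 0.79 FPKM, where the other UUO7 libraries had 0.0. The 4 adipose markers with a row, of 5 listed, summed to 0.37 to 36.8 FPKM in Sham, 0.64 to 1.03 in UUO2, 0.64 to 2.83 in UUO7, 0.36 to 0.45 in R1W, 0.19 to 0.33 in R2W and 0.42 to 270 in R4W. With the 3 Adipoq-rich libraries left out, an alternative chosen after seeing the data, Serping1 in UUO2 was 0.04 from Sham instead of -0.34.

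**Figure D5:**
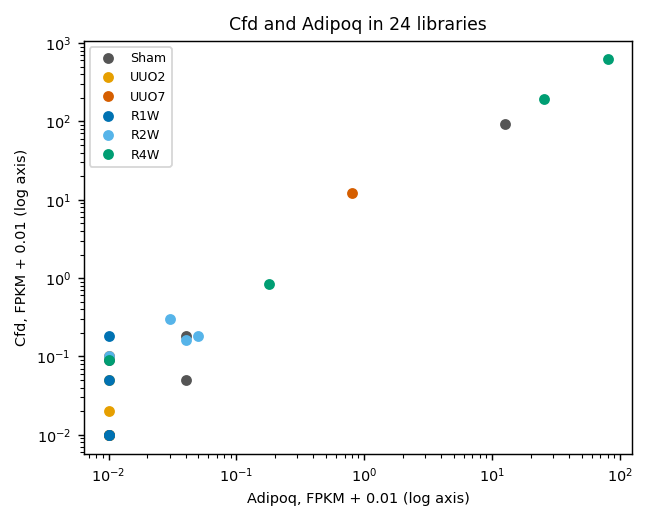
FPKM of Cfd against Adipoq, each plus 0.01 on log axes, with 1 point per library coloured by group. The 3 libraries with the highest Adipoq, at 12.5, 25.6 and 79.7 FPKM, also have the highest Cfd.

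Markers of other cells moved beside these genes, and their part in the results was not tested. The 8 macrophage markers, all with a row, summed to 39.5 to 58.2 FPKM in Sham, 61.6 to 130 in UUO2, 632 to 814 in UUO7, 748 to 1151 in R1W, 654 to 1658 in R2W and 590 to 1145 in R4W, and all 8 rose from Sham to UUO7. Outside Sham the sum is mostly Lyz2 and Ctss, while in Sham Csf1r had the highest mean of the 8, at 18.3 FPKM. Single markers differed from the sum. By day 2 6 of the 8 had risen, Adgre1 was not called and Csf1r had fallen (-1.06, limma adjusted p = 3.05e-06), and from UUO7 to R4W Mrc1 (-0.75) and Fcgr1 (-0.83) fell. The C1q genes had the same order of groups from Sham to UUO7. Against the macrophage gene Adgre1, the log2 ratio of C1qa rose by 1.52 from Sham to UUO7 and changed by -0.45 from UUO7 to R4W (exact permutation p = 0.0286, adjusted p = 0.0317 for both). The second change lost its call without UUO7 replicate 3, without any 1 of the 4 R4W replicates, and with R4W replicate 2 moved to R2W (adjusted exact p = 0.0635 each). As plain FPKM the first pair overlapped, at 12.7 to 19.1 in Sham and 17.4 to 24.8 in UUO7, and the first difference was 0.58 with a pseudocount of 0.1. The C3ar1/C1qa ratio likewise changed by -2.46 from Sham to UUO7 on the log2 scale but by -0.88 with a pseudocount of 0.1, and its plain FPKM ratios overlapped, at 0.0183 to 0.0246 and 0.0127 to 0.0208. From UUO7 to R4W it changed by 0.42 (exact permutation p = 0.0857).

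The 5 fibroblast markers summed to 12.7 to 34.8 FPKM in Sham, 27.3 to 48.6 in UUO2, 178 to 214 in UUO7, 156 to 202 in R1W, 111 to 179 in R2W and 103 to 179 in R4W. Of the 5, 2 rose by day 2, all rose by day 7 and 2 fell from UUO7 to R4W. The 4 injured tubule markers summed to 5.27 to 21 FPKM in Sham, 671 to 1123 in UUO2, 1369 to 1722 in UUO7, 471 to 718 in R1W, 256 to 776 in R2W and 200 to 303 in R4W. All 4 were above Sham by day 2 and fell from UUO7 to R4W. From UUO2 to UUO7 Vcam1, Krt20 and Lcn2 rose further (2.27, 1.50 and 0.97, the last 0.62 and not called after rescaling), and Havcr1 was not called (0.14). The 5 proximal tubule markers summed to 10255 to 15496 FPKM in UUO2, 9239 to 16558 in UUO7, 13729 to 25424 in R1W, 18338 to 32311 in R2W and 20478 to 29957 in R4W. This sum is mostly Kap, and 4 of the 5, Slc34a1, Lrp2, Slc5a2 and Slc22a6, fell further from UUO2 to UUO7 (-0.89, -1.48, -1.02 and -1.24). The 2 thick ascending limb markers, Umod and Slc12a1, summed to 1794 to 2066 FPKM in Sham, 694 to 1494 in UUO2, 1074 to 1393 in UUO7, 1702 to 2108 in R1W, 1642 to 2007 in R2W and 1474 to 2223 in R4W. Both were below Sham in UUO2 and UUO7, and neither was called against Sham after reversal, although after rescaling Umod was below Sham in R1W (-0.41) and Slc12a1 in R1W and R2W (-0.94 and -0.76). The 4 hepatocyte markers with a row, of 5 listed, summed to 113 to 178 FPKM in Sham, 69.4 to 198 in UUO2, 43.2 to 72 in UUO7, 83.2 to 141 in R1W, 98 to 171 in R2W and 96.2 to 164 in R4W, and they did not move together. In UUO2 Apoh rose (0.59, limma adjusted p = 0.0414, but 0.47 and not called after rescaling), Alb and Ttr fell, and Serpina1a was not called (0.41). In UUO7 Alb, Ttr and Apoh were below Sham and Serpina1a was not called (-0.17).

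Other marker lists also moved with the genes that were high from day 7 on. The 4 endothelial markers summed to 41.1 to 75.8 FPKM in Sham, 21.4 to 49.4 in UUO2, 112 to 126 in UUO7 and 102 to 124 in R4W; 2 of the 4 fell by UUO2, 3 were above Sham in UUO7 and all 4 in R4W, where Kdr lost its call after rescaling. The 3 neutrophil markers with a row, of 5 listed, summed to 0.99 to 1.53 FPKM in Sham, 4.58 to 5.9 in UUO2, 10.9 to 17.3 in UUO7 and 5.69 to 15.8 in R4W, with 2 above Sham in UUO2 and all 3 in UUO7 and R4W. The 2 lymphocyte markers with a row, of 5 listed, summed to 0.39 to 0.59 FPKM in Sham, 0.48 to 0.92 in UUO2, 4.43 to 6.65 in UUO7 and 6.52 to 14.9 in R4W, and both were above Sham in UUO7 and R4W. The 4 urothelial markers summed to 0.52 to 25.3 FPKM in Sham, 0.1 to 2.64 in UUO2, 14.2 to 25.9 in UUO7 and 30.1 to 106 in R4W, with 2 above Sham in UUO7 and all 4 in R4W.

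Over the 24 libraries and the 7747 genes averaging 10 FPKM or more, the genes whose log2 levels followed a member most closely were found by Pearson's r, as a description of libraries that share groups. C3 was followed by Serpina10 (r = 0.986), Clu (0.982) and Lcn2 (0.975). C1qa was followed by Laptm5 (0.996), Fcgr3 (0.995) and Tyrobp (0.994), all known from myeloid cells. Serping1 was followed by Timp2 (0.992), Adamts10 (0.992) and Pdgfra (0.991), the last a fibroblast receptor. C4b was followed by Wfdc2 (0.973), Ywhab (0.966) and Rps13 (0.954).

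Single animals also differed together. R2W replicates 1 and 3 were both above replicates 2 and 4 for 8 of the 9 genes, as for 50.1% of all genes, and Cfb had the opposite order, as 14.2% of all genes did. R4W replicate 4 was lowest of its group for 7 of 9, as for 41.3% of all genes, and Sham replicate 2 was highest for 8 of 9, as for 50.1% of all genes.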

How the data were processed

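The authors deposited 1 table with 24 columns of expression values and their own log2 fold changes and adjusted p-values for 15 comparisons. The values deposited by the authors name no unit. The deposited values were taken as FPKM made by the authors, since in 20 libraries they fall on whole-read steps for transcripts shortened by a fragment length. RSEM, Bowtie2, FastQC, DESeq2 and mm10 are named per the submitters' processing notes, with no versions. How the authors filtered genes is not given in the sources used here.

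Values were tested as log2(FPKM + 1) with limma 3.58.1 (trended empirical Bayes, R 4.3.3) in 1 fit over all 24 libraries, with Benjamini-Hochberg adjustment over 14785 genes and a threshold of 0.05. The fit was tested on simulated data. Ratios of 2 genes were tested by exact permutation over animals, two-sided, 10 in all. The alternatives were median-ratio rescaling, pseudocounts of 0.1 and 10, a mean of at least 10 FPKM, a fold minimum, a stricter threshold, 2 groups only, no UUO2, a replicate block, R4W replicate 2 moved to R2W, each replicate left out and, chosen after seeing the data, no Adipoq-rich libraries. Among the other complement genes, those named were up to 3 with the largest called change in each direction of each comparison. Only genes with no overlap between the libraries of the 2 groups were eligible. C2, C7, Cfd, Cr1l, Cd46, Cd59a and Cd59b were chosen after their values were seen, and 1 gene that the rule named is not reported here. The members, marker lists and gene lists were chosen with earlier results of these data known.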

Additional observations from a re-analysis of the deposited data

Results flagged for a closer look

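In a check for 1 animal of 4 standing apart from its group by Dixon's ratio, 9 of 144 checks were positive, where chance gives about 7.2. Of these, 5 were Sham replicate 2, a library with Adipoq at 12.5 FPKM: C3 at 7.48, C1qb at 19.17, C1qc at 12.66 and Serping1 at 42.79 FPKM were above the other sham mice, and Cd55 at 7.45 FPKM was below them. The other 4 were Colec12 at 1.66 FPKM in UUO2 replicate 3, Cfi at 18.16 in UUO2 replicate 2, C8a at 3.04 in UUO7 replicate 4 and Cpn1 at 29.09 in R4W replicate 4, each the lowest of its group.

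Cfb stood above every Sham mouse in UUO2 and UUO7 and below every Sham mouse in R4W, with -0.91 between R4W and UUO7 on the log2 scale (limma adjusted p = 1.77e-05). Mbl1 stood above every Sham mouse in UUO2 and below every one in R1W and R2W, with -1.53 between R1W and UUO2 on the log2 scale, a difference that was not tested.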

How the results depend on the processing

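Over the 9 single genes, in the 7 comparisons other than R1W and R2W against Sham and R2W against R1W and R4W, 580 of 614 values under the alternatives other than leaving out a replicate kept direction and call, 18 lost the call, 9 gained it and 7 changed sign; none of those 7 was a called value. In the other 4 comparisons, rescaling added calls of Cfb below Sham in R1W (-0.45, limma adjusted p = 0.012, from -0.00) and R2W (-0.60, adjusted p = 0.0017, from -0.21). The changes of sign were C3 (-0.21) and Cfb (-0.33) from UUO2 to UUO7 after rescaling, C4b from R1W to R4W (-0.06 with R4W replicate 2 moved, -0.17 without the Adipoq-rich libraries), Serping1 from Sham to UUO2 (0.04 without those libraries) and Serping1 from UUO7 to R4W (-0.07 and -0.04 for the same 2 alternatives). The number of members called from UUO7 to R1W was 1 with a fold minimum and 1 at an adjusted p under 0.01. From UUO7 to R4W it was 1 with a fold minimum, and 5 with a pseudocount of 10, with 2 groups only and with R4W replicate 2 moved; it was 2 to 5 with 1 replicate left out, and 5 without R4W replicate 2. From R1W to R4W it was 0 at 0.01 and with 2 groups only, and 0 to 1 with 1 replicate left out. The cause was not tested.

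Leaving out 1 replicate gave changes of sign for values near 0: C4b from R1W to R4W (-0.07 to 0.22), Cfb from UUO2 to UUO7 (-0.08 to 0.12), C1qb from R1W to R4W (-0.34 to 0.00), Serping1 from Sham to UUO2 (-0.53 to 0.04) and from UUO7 to R4W (-0.07 to 0.10). The C1qa/Adgre1 ratio from UUO7 to R4W ranged from -0.52 to -0.33, and lost its call without UUO7 replicate 3 or any 1 of the 4 R4W replicates (adjusted exact p = 0.0635 each), as it did with R4W replicate 2 moved (-0.46, 0.0635). The C3ar1/C1qa ratio gained a call from UUO7 to R4W with a pseudocount of 10 (0.56, adjusted exact p = 0.0286).

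Replicate numbers did not pair the mice: same-numbered libraries correlated at a mean of -0.174 to 0.148 across the comparisons. With the replicate block the 9 called ratios kept their values (1.64, -1.71, -5.84, 1.50, -3.74, 2.03, -2.46, 1.52 and -0.45) at an adjusted exact p = 0.139, since 4 pairs cannot give a raw p below 0.125, and C3ar1 from Sham to UUO2 was not called (0.49, limma adjusted p = 0.0603). With 4 mice per group, and C3ar1 and Masp2 at or below a few FPKM, small differences may not have been detectable.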
